A study of Spodoptera litura with 9 samples.

Results

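In testes of the tobacco cutworm Spodoptera litura, 20 of 1143 assembled long non-coding RNAs (lncRNAs) past a filter on counts were chosen for standing higher in the fusing prepupal testis than before and after fusion. The deposited table holds 2476 lncRNAs in all. Of these, 15 others met the rule's conditions on the peak but were left out for their class alone or their larval counts alone. They are counted at the end, and rows left out on both grounds were not counted. All 20 are transcripts found by assembly, with IDs such as MSTRG.17032.1 in place of gene names, each the only transcript of its locus in the deposited table. They were picked by their own values: a mean estimated count of at least 20 over the 9 libraries, more than 5 counts in some L6D4 library, a lowest L6D6 value above every value at the other stages, and an L6D6 mean at least 1.5 times the mean of each other stage. They make up 1.75% of the single-transcript assembled loci past the filters on counts. The peak at L6D6 is therefore the way these lncRNAs were found and is described here without a test. The rule did not fix the order of the 2 flanking stages, and this order was tested. The rule did read the values of both flanks, so the test is not wholly independent of the choice. The error of the test also pools the spread within L6D6, on which the rule set a condition.

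The stages sampled were sixth instar larvae on day 4 (L6D4), before the testes fuse, sixth instar larvae on day 6, or prepupae (L6D6), while they fuse, and pupae on day 0 (P0D), with fusion complete. Of each stage 3 testis libraries were made. The animals were not treated, larvae were reared on an artificial diet, and the labels mention 9 males without saying whether these were per stage or whether repeats came from separate animals. The p-values below therefore measure the spread between these libraries, which may be technical. Since the stages also differ in age and moult, effects of fusion and of development cannot be told apart.

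In many moths the paired larval testes join into 1 organ around pupation, at the time when steroid moulting hormone rises and the wall of the testis is remodelled, while spermatogenesis goes on inside. Long non-coding RNAs are transcripts without a long reading frame, of which some act on chromatin or on neighbouring genes and others bind proteins or microRNAs. Testis is known across animals for making many of them, often at low levels and in few cell types. For the 20 described here no function, gene name, sequence or genome position was at hand, so each is known by its counts alone.

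The 9 libraries held between 2665554 and 4262529 lncRNA counts. P0D replicate 3 stood apart, with 59.42% of its counts in its 10 leading lncRNAs, against 64.26% to 72.09% in the other 8 libraries. Levels below are normalised counts, that is, estimated counts divided by the library's size factor, which ran from 0.5966 to 1.2578. They are not corrected for transcript length, so they compare a lncRNA with itself across libraries and not 1 lncRNA with another. In whole testes, fewer cells of a type and less RNA per cell cannot be told apart.

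All 20 lncRNAs had a count in all 9 libraries. Together they took 0.5036%, 0.5665% and 0.6248% of the lncRNA counts in the 3 L6D6 libraries. The same transcripts took 0.0553% to 0.0693% at L6D4 and 0.0433% to 0.0705% at P0D. Their share was higher in each L6D6 library than in any other, which follows largely from the rule, and it overlapped between larva and pupa. Most of it was MSTRG.17032.1, which alone took 0.3604% to 0.3894% of the L6D6 counts. Without this transcript the summed normalised count was 5858 ± 1424 at L6D6, against 1036 ± 77.9 at L6D4 and 1121 ± 89.1 at P0D (SD, n = 3 each). The excess of this sum at L6D6 is also set by the rule. MSTRG.18870.2, MSTRG.12294.1 and MSTRG.17050.1 brought means of 1527, 1049 and 982 to it.

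**Figure D1:**
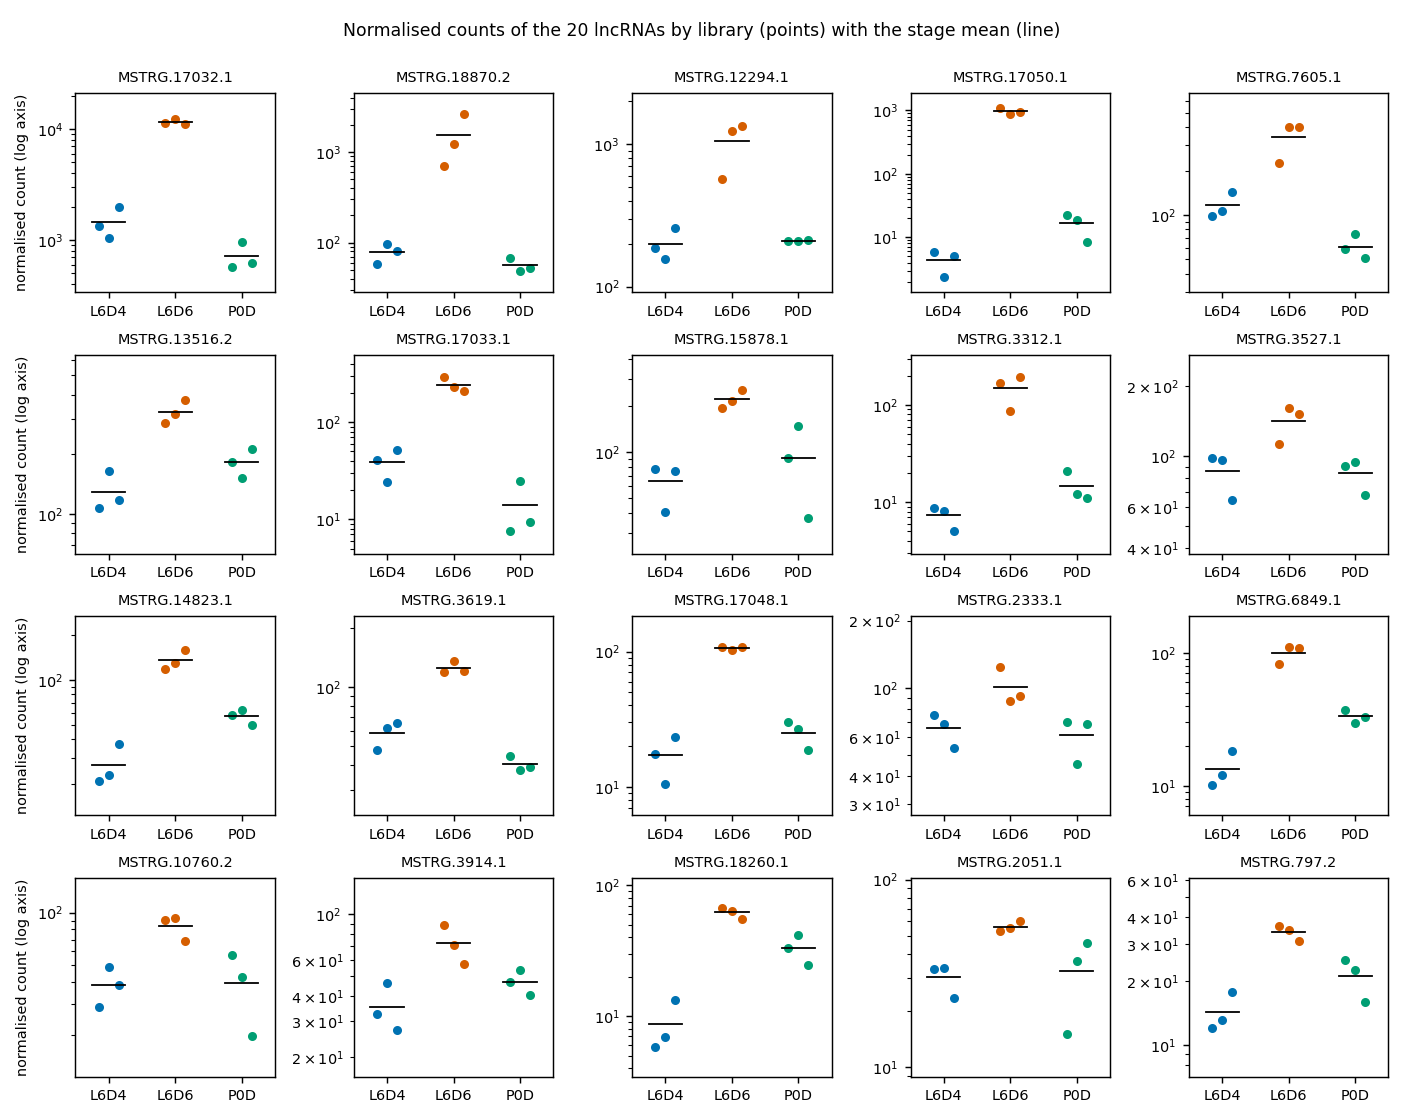
Normalised counts (log axis, a different range in each panel) of the 20 lncRNAs in the 9 libraries; points are libraries and lines are stage means. In every panel the 3 L6D6 points lie above all points of the other stages, as the rule requires, while the order of L6D4 and P0D differs between panels.

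The height of the peak was taken as the ratio of the L6D6 mean to the larger of the other 2 stage means. It ran from 1.53 to 58.9, with a median of 2.38. It was at least 5 for 6 lncRNAs, from 2 to under 5 for 7 and under 2 for the other 7. The rise from L6D4 had a median ratio of 4.19 and the drop to P0D, as L6D6 over P0D, one of 2.7. The L6D6 mean lay farther above L6D4 than above P0D for 13 of the 20. That is the same as a P0D mean above the L6D4 mean. The order of these flanks is tested below, where calls were near the shares among all lncRNAs.

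**Figure D2:**
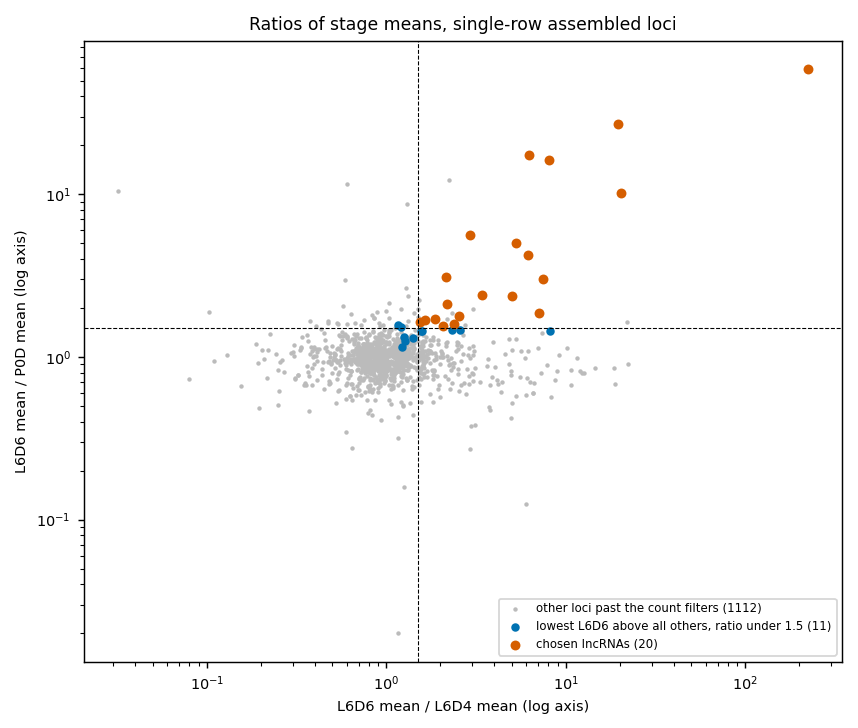
L6D6 mean over L6D4 mean (horizontal) and L6D6 mean over P0D mean (vertical), both on log axes, for the single-transcript assembled loci past the count filters. The dashed lines mark 1.5, 1 locus without a finite ratio is not drawn, and the 20 chosen lncRNAs spread from just inside the corner to ratios of 223 and 58.9.

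The 6 steepest peaks differed in what they started from. MSTRG.17050.1 was close to absent before fusion, with 5.86, 2.33 and 5.03 normalised counts at L6D4. It stood at 1108, 894 and 944 at L6D6, and at 22.6, 18.9 and 8.47 at P0D. This was the highest peak by ratio, 223 times the larval mean and 58.9 times the pupal mean, and its larval level rests on 11 counts in all. MSTRG.17032.1 was already well expressed in the larva, at 1341, 1052 and 1975 normalised counts. It reached 11433, 12436 and 11177 at L6D6 and lay at 576, 965 and 617 at P0D. Its 3 prepupal libraries were alike (coefficient of variation 5.69%), and its pupal values all lay below its larval values.

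MSTRG.17033.1 had 41.0, 24.5 and 52.0 normalised counts at L6D4. At L6D6 it had 293, 228 and 208, and at P0D 7.55, 24.9 and 9.32. One pupal library, replicate 2, reached just above the lowest larval one, and the other 2 lay well under it. MSTRG.3312.1 rose from single-digit levels, 8.79, 8.16 and 5.03 at L6D4, to 168, 85.9 and 195 at L6D6. It stood at 20.8, 12.0 and 11.0 at P0D, above all larval values but near them on the scale of the peak.

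MSTRG.18870.2 and MSTRG.12294.1 were high but uneven in the prepupa. MSTRG.18870.2 had 58.6, 96.8 and 80.5 normalised counts at L6D4 and 68.5, 48.3 and 53.0 at P0D. Its L6D6 values were 701, 1231 and 2648, a 3.78-fold spread between libraries of the same stage, the widest of the 20. MSTRG.12294.1 had 186, 156 and 258 at L6D4 and a tight 207, 208 and 212 at P0D. At L6D6 it had 564, 1243 and 1340, with replicate 1 well below the other prepupal libraries. MSTRG.7605.1 was also lowest in L6D6 replicate 1, at 228, against 399 and 400 in the others. In all, the highest L6D6 library was replicate 1 for 6 of the lncRNAs, replicate 2 for 5 and replicate 3 for 9, and for 5 of the 20 the highest prepupal library was at least 1.5 times the lowest.

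Peaks of middling height were mostly even between prepupal libraries. MSTRG.17048.1 was the most even, at 107, 103 and 107 normalised counts at L6D6 (coefficient of variation 2.65%). It had 17.6, 10.5 and 23.5 at L6D4 and 30.2, 26.6 and 18.6 at P0D, which overlap. MSTRG.6849.1 went from 10.2, 12.0 and 18.3 at L6D4 to 82.2, 111 and 108 at L6D6. It kept 37.3, 29.8 and 32.9 at P0D, between the other stages with no overlap on either side. MSTRG.14823.1 had the same order, with 21.0, 23.0 and 37.0 at L6D4, 118, 129 and 157 at L6D6, and 57.9, 62.9 and 50.1 at P0D.

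In MSTRG.7605.1 the order of the flanks was turned around, since its larval values of 98.7, 107 and 145 all lay above its pupal values of 58.5, 74.0 and 50.9. MSTRG.3619.1 shared this order, at 47.8, 61.8 and 65.4 in the larva, 120, 135 and 120 in the prepupa and 44.3, 37.8 and 39.0 in the pupa. MSTRG.15878.1 had 193, 214 and 253 at L6D6, over 78.1, 40.8 and 75.4 at L6D4. Its pupal libraries were far apart, at 91.5, 147 and 37.3, with replicate 2 the highest and replicate 3 below every larval library. MSTRG.10760.2 had 90.3, 93.0 and 68.4 at L6D6 and flanks that overlapped, from 28.9 to 48.9 at L6D4 and from 19.6 to 57.1 at P0D.

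The 7 shallow peaks, with a ratio under 2, included some that came down by less than they had risen and some low humps. These kinds are not exclusive. MSTRG.18260.1 is of the first kind, with 5.86, 7.00 and 13.4 at L6D4, 67.4, 63.6 and 55.6 at L6D6, and 33.0, 42.1 and 24.6 at P0D. It rose 7.11-fold from L6D4 to L6D6 and kept 53.4% of its prepupal mean in the pupa, and its larval level rests on 20 counts. MSTRG.13516.2 stood at 130 ± 30.5 in the larva, 327 ± 43.2 in the prepupa and 182 ± 30.7 in the pupa (SD, n = 3 each). MSTRG.2051.1 and MSTRG.3527.1 were low humps, with L6D6 means 1.72 and 1.65 times the larger flank. MSTRG.2051.1 had 53.2, 54.9 and 60.2 at L6D6, over 33.2, 33.8 and 23.5 at L6D4 and a scattered 15.1, 36.9 and 45.7 at P0D. In MSTRG.3527.1 the lowest prepupal value, 113 in replicate 1, was close to the highest larval one, 97.8, and to the highest pupal one, 93.8.

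The members nearest to the threshold were MSTRG.2333.1, MSTRG.3914.1 and MSTRG.797.2, with ratios of 1.53, 1.55 and 1.6. MSTRG.2333.1 had 123, 87.5 and 91.7 at L6D6 against a highest larval value of 75.2 and a highest pupal value of 69.8. MSTRG.3914.1 had 89.0, 71.3 and 57.2 in the prepupa, the last of them just above the highest pupal value of 53.7. MSTRG.797.2 had the fewest normalised counts of the 20 in the prepupa, at 36.3, 34.8 and 30.9. Just outside were MSTRG.3779.1, MSTRG.17155.7 and MSTRG.14031.1, with ratios of 1.46, 1.46 and 1.45 and prepupal values that also lay above all others. In total 11 loci met the order but not the ratio, and 10 met the ratio but had values that overlapped. The edge of the group is therefore a cut through a continuous range.

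Whether these lncRNAs came back to their larval level after fusion was tested by edgeR's quasi-likelihood test over all 1913 lncRNAs with enough counts, with Benjamini-Hochberg adjustment. All 20 had enough counts to be tested. At P0D, 4 of the 20 were higher than at L6D4 and 3 were lower, at an adjusted p under 0.05, and 13 did not pass. Among all lncRNAs tested 26.6% were called, 14.1% higher and 12.5% lower, and among the 1143 single-transcript assembled loci 14.3% and 13.9%. The 4 (20%) and 3 (15%) of the 20 are near these shares. The median log2 fold change was 0.22 over the 20 and 0.01 over all tested, and the former fell to 0.04 without P0D replicate 2. The requirement of more than 5 counts in some larval library keeps out loci with few or no larval counts, and so bears on the number found higher in the pupa. The test shares its estimate of spread over all 3 stages. In a fit of L6D4 and P0D alone, 2 of the 20 were called higher and 2 lower, beside 223 and 181 of the 1826 lncRNAs tested there.

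The 4 that stayed above the larval level were MSTRG.18260.1, MSTRG.17050.1, MSTRG.6849.1 and MSTRG.14823.1. MSTRG.18260.1 had a log2 fold change of 1.95 (SE 0.39, edgeR adjusted p = 0.00332). MSTRG.6849.1 had one of 1.34 (SE 0.32, edgeR adjusted p = 0.00811). Both kept their call under all 16 alternatives run. MSTRG.17050.1 rose by 1.85 from larva to pupa (SE 0.45, edgeR adjusted p = 0.0102), although its pupal mean was only 1.7% of its prepupal mean. Its call ended with limma-voom (adjusted p = 0.094) and in a fit of L6D4 and P0D alone (0.0614). MSTRG.14823.1 had a log2 fold change of 1.055 (SE 0.27, edgeR adjusted p = 0.0141), a call that ended without L6D4 replicate 1 (0.0595), without P0D replicate 2 (0.055) and in the fit of L6D4 and P0D alone (0.0533).

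Of the 3 that ended below the larval level, MSTRG.17032.1 fell by 1.04 on the log2 scale (SE 0.25, edgeR adjusted p = 0.00959), to a pupal mean 0.494 times the larval mean. MSTRG.17033.1 fell by 1.49 (SE 0.44, edgeR adjusted p = 0.0262) and MSTRG.7605.1 fell by 0.95 (SE 0.28, edgeR adjusted p = 0.0251). With library totals as the only scaling, which moves the median of all tested lncRNAs from 0.01 to 0.40, none of the 3 was called (edgeR adjusted p = 0.101, 0.104 and 0.187). The calls for MSTRG.17033.1 and MSTRG.7605.1 also ended without L6D4 replicate 3 (0.0935 and 0.0973), without P0D replicate 1 (0.079 and 0.0675) and without P0D replicate 3 (0.093 and 0.0813). For MSTRG.17033.1 the same held without L6D4 replicate 1 (0.0683) and in the fit of L6D4 and P0D alone (0.0746), and its call held in 9 of the 16 alternatives.

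Among the 13 without a call, the estimates nearest to 0 were those of MSTRG.10760.2 (0.01, SE 0.37), MSTRG.12294.1 (0.04, SE 0.30) and MSTRG.3527.1 (-0.07, SE 0.25). These errors leave room for changes in either direction. MSTRG.3312.1 had a larger estimate of 0.90 (SE 0.46, edgeR adjusted p = 0.177), and all its pupal values lay above its larval ones. For MSTRG.3619.1 the estimate was -0.55 (SE 0.23, edgeR adjusted p = 0.0968), and all its pupal values lay below its larval ones. Larval and pupal values did not overlap for 8 of the 20 lncRNAs, 5 with the pupa higher and 3 with it lower. That is 40%, beside 38.6% of all lncRNAs tested, with 20% higher in the pupa and 18.7% lower.

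**Figure D3:**
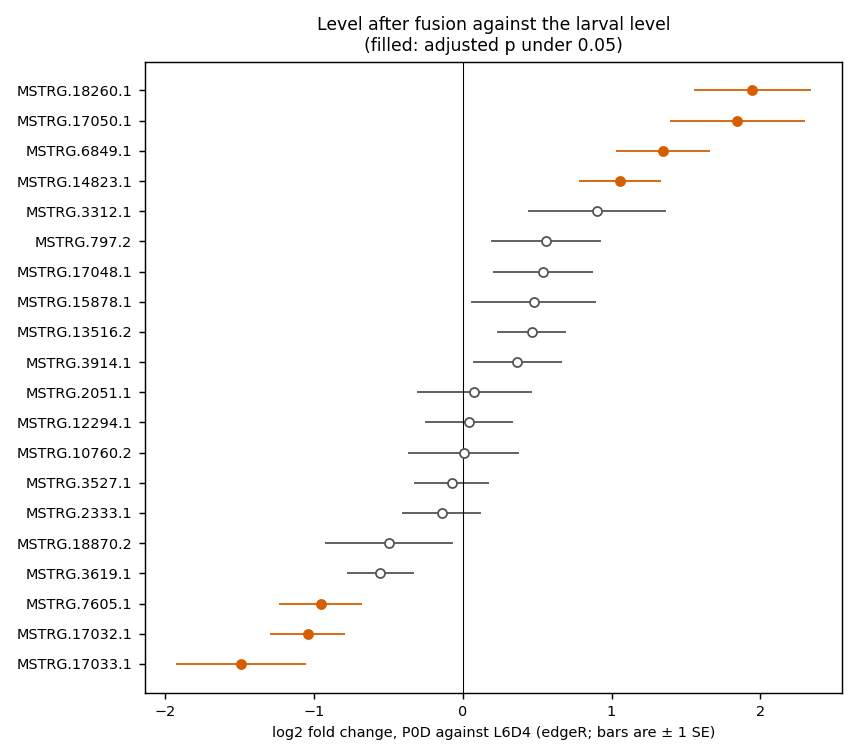
Log2 fold change of P0D against L6D4 for the 20 lncRNAs (edgeR, bars are 1 SE on either side, filled points have an adjusted p under 0.05). Values run from -1.49 in MSTRG.17033.1 to 1.95 in MSTRG.18260.1, with 4 filled points above 0 and 3 below.

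A run of close ID numbers stood out among the 20 and was noticed after the values were seen. The assembly gave its loci numbers up to 21519, and the table holds 1727 of them. Only 4 rows of the table have a locus number from 17032 to 17050 (17032, 17033, 17048 and 17050), and all 4 are among the 20. These bounds were drawn from the members themselves, as their longest run with gaps of at most 20. Both end rows are therefore members by construction, and the run was not tested. The next numbers in the table are 16998 on the lower side and 17082 on the higher. Neither of these met the rule. MSTRG.17082.2 stood at 19.9 ± 10.3, 253 ± 18.8 and 316 ± 108 normalised counts at L6D4, L6D6 and P0D (SD, n = 3 each). Locus 16998 has several transcripts in the table, which the rule leaves out whatever their values. At the same stages MSTRG.16998.1 stood at 326 ± 6.61, 451 ± 48.7 and 407 ± 104. MSTRG.16998.2 stood at 267 ± 97.0, 394 ± 16.6 and 350 ± 95.8 (SD, n = 3 each for both). Among the other 16 members no 2 locus numbers were closer than 92. Some rows that are not members also bear numbers next to a member. MSTRG.2052.1 and MSTRG.2053.1, next to member MSTRG.2051.1, had peak ratios of 1.51 and 1.72 but values that overlapped. MSTRG.18259.1, next to member MSTRG.18260.1, had a peak ratio of 1.295. The run is thus not the only place where close numbers went with a raised L6D6 level. The sources used here give no genome position for these IDs.

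Counts of these 4 were set against each other within each library, which needs no scaling between libraries. MSTRG.17033.1 had 2.33% to 3.06% of the count of MSTRG.17032.1 at L6D4, 1.84% to 2.56% at L6D6 and 1.31% to 2.58% at P0D. The ranges overlap between successive stages, while MSTRG.17032.1 itself moved from a larval mean of 1456 to a prepupal mean of 11682 and a pupal mean of 720 normalised counts. MSTRG.17048.1 had 0.998% to 1.31% at L6D4, 0.825% to 0.962% at L6D6 and 2.76% to 5.24% at P0D. These ranges did not overlap, but those of L6D4 and L6D6 lay close. The L6D4 shares rest on only 18, 9 and 14 counts. The share of MSTRG.17050.1 moved most, with 0.222% to 0.437% at L6D4, 7.19% to 9.69% at L6D6 and 1.37% to 3.93% at P0D. Its L6D4 shares rest on 6, 2 and 3 counts, and the P0D shares of MSTRG.17033.1 on 8, 29 and 11. Whether the 4 are parts of the same transcript was not tested.

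**Figure D4:**
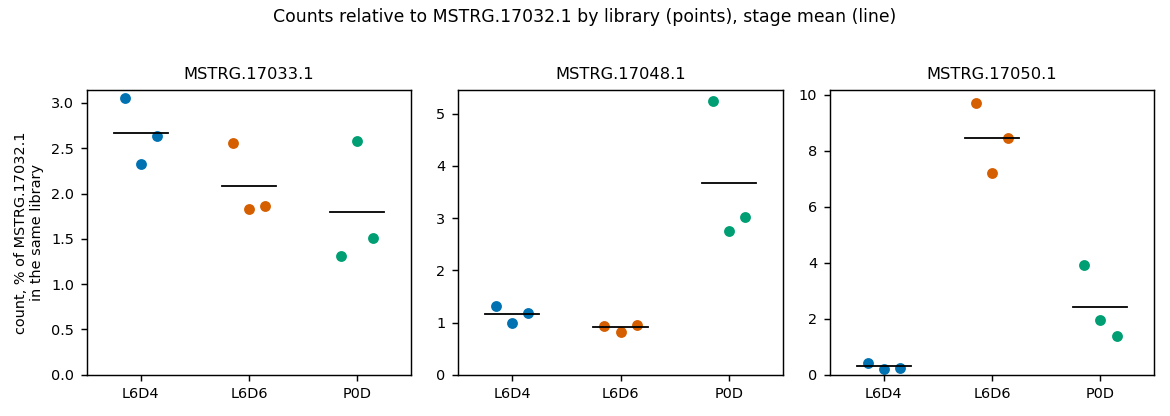
Counts of MSTRG.17033.1, MSTRG.17048.1 and MSTRG.17050.1 as a percentage of the count of MSTRG.17032.1 in the same library; points are libraries, lines are stage means and each panel has its own axis from 0. Stage means are 2.67%, 2.09% and 1.80% for MSTRG.17033.1, while those of MSTRG.17050.1 go from 0.305% to 8.44% and 2.42%.

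The form of the values and of the IDs was not read by the rule. All 9 deposited values were whole numbers for 11 of them (55%), against 61.8% of the other 1123 loci past the count filters. The other 9 members carry decimals, which estimated counts take when reads are divided between features, and how the authors divided them is not known here. The 4 with close locus numbers, MSTRG.3312.1 and MSTRG.18260.1 are among those with whole numbers, and MSTRG.18870.2 and MSTRG.12294.1 are not. The transcript number within the locus was 1 for 16 of the 20 (80%), against 84.9% of the others. The exceptions were MSTRG.18870.2, MSTRG.13516.2, MSTRG.10760.2 and MSTRG.797.2, and further transcripts of these loci were not analysed here.

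Peaks at this stage were less common than peaks at the larval stage by the same conditions. The filter on larval counts, which favours the larval stage, was kept. With L6D4 in the place of L6D6, 110 of the 1143 loci (9.62%) met them, and with P0D 25 did (2.19%). The conditions were also met at L6D6 by 7 of 196 annotated transcripts (3.57%) and by 3 of 265 transcripts from loci with several (1.13%). Among the annotated ones was LOC111347958, with 85.2 ± 29.3, 372 ± 103 and 15.6 ± 9.07 normalised counts at L6D4, L6D6 and P0D (SD, n = 3 each). These shares were not compared by a test.

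The filter on larval counts alone kept out 5 further loci. MSTRG.15510.1 had 1.95, 4.66 and 6.71 normalised counts at L6D4, 26428, 24564 and 27259 at L6D6, and 6081, 8385 and 6302 at P0D. MSTRG.15511.1, the next number, was listed at 0 in all larval libraries and had 660, 553 and 631 at L6D6. MSTRG.13874.1 was also listed at 0 in the larva, had 649, 1209 and 1303 in the prepupa, and came down to 4.72, 0.858 and 0 in the pupa. MSTRG.20834.1 had 389, 304 and 177 at L6D6, and MSTRG.11278.2 had 60.7, 65.2 and 70.4. The filter divides near neighbours, since MSTRG.17050.1 passed it with 6 counts in 1 larval library and MSTRG.15510.1 missed it with at most 4.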

How the data were processed

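RNA of testes from 3 stages, 3 libraries each, was depleted of ribosomal RNA and sequenced with strands marked, per the labels' protocols. The labels nevertheless give the molecule as polyA RNA. The authors deposited estimated counts of each lncRNA transcript, without scaling to depth. The submitters' processing notes list StringTie 1.3.4, HISAT2 2.1.0, Bowtie2 2.2.8, fastp 0.18.0 and DESeq2 1.6.3 but assign them no steps. The sources used here do not give the counting tool, genome build, annotation or use of strand, and an lncRNA lying across another gene may therefore hold reads of that gene.

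The member rule was applied to the values as deposited, scaled by median-of-ratios size factors over all rows. The members and the lists were chosen with earlier results of these data known. P0D was compared with L6D4 on values rounded to whole counts, by edgeR 4.0.16 (R 4.3.3; quasi-likelihood test, TMM, filterByExpr, all 9 libraries, 6 residual degrees of freedom), with a Benjamini-Hochberg adjusted p under 0.05 over 1913 rows; 563 were left out. TMM and the size factors differed by at most 0.03 (log2) in a library. Log2 fold changes are edgeR's; ratios are of mean normalised counts. The text names all members, chosen as those with the highest prepupal level, the steepest peak, the largest called changes, or the values nearest to a threshold or to 0; the rest, the neighbours in number and the loci outside the rule were named after their values were seen. Alternatives were other scalings, filters and tools, the replicate block, and each library left out. Within a stage, every pair of libraries differed by more than sampling noise, with 14.02 to 112.23 as chi-square over its degrees of freedom. The largest values, 112.23 and 51.71, were those of P0D replicate 3 with P0D replicates 1 and 2. All other pairs lay at 14.02 to 24.98. Depth limits the members with few larval counts.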

Additional observations from a re-analysis of the deposited data

How the results depend on the processing

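The number of lncRNAs chosen was 20 by the rule and 40 with no filter on counts, 31 with no threshold on the ratio and 13 with a ratio of at least 2. With 1 library left out it ran from 19 to 28, and between 18 and 20 of the original 20 were kept. TMM or library totals in place of the size factors gave 22 and 21, with 20 and 17 of the 20 kept. Members higher at P0D than at L6D4 numbered 4, and 2 in a fit of those stages alone. With 1 library left out there were 3 to 4 higher and 1 to 3 lower. Scaled by library totals alone, edgeR called 0 lower, with 2 lower at an unadjusted p under 0.05, while DESeq2 and limma-voom with their own scaling each called 3 lower. The median log2 fold change of the 20 was 0.22, went to 0.63 with library totals, and ran from 0.038 to 0.414 with 1 library left out.

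Only members without a call changed direction. With library totals the log2 fold change of MSTRG.3527.1 went to 0.255 and MSTRG.2333.1 to 0.23. With limma-voom MSTRG.10760.2 went to -0.094 and MSTRG.2051.1 to -0.068. With 1 library left out the range was -0.31 to 0.38 for MSTRG.10760.2, -0.11 to 0.28 for MSTRG.12294.1, -0.046 to 0.90 for MSTRG.15878.1, -0.21 to 0.44 for MSTRG.2051.1, -0.25 to 0.033 for MSTRG.2333.1 and -0.23 to 0.093 for MSTRG.3527.1. The cause was not tested.

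Libraries with the same replicate number did not deviate together (r from -0.185 to 0.155 over 9 pairs), so the number is not taken as a pairing. With the replicate block 4 members were called higher and 2 lower, the median was 0.23, MSTRG.10760.2 stood at -0.049, and MSTRG.17033.1 had an adjusted p of 0.05003 (edgeR). Levels that rest on few larval counts, 11 for MSTRG.17050.1 and 20 for MSTRG.18260.1, are limited by depth.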
